A study of Mus musculus with 6 samples.

Results

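The mature miRNAs named miR-297, miR-466, miR-467, and miR-669, most of which are encoded in the mouse Sfmbt2 gene, were examined in the small intestine of mice with and without the circular RNA Cdr1as. Members were chosen by number alone, as every miRNA of the deposited comparison table whose name carries one of these 4 numbers. The rule uses no measured value, but it was set with earlier results of these data known. There were 71 such miRNAs among the 1831 in the table: 4 of miR-297, 27 of miR-466, 13 of miR-467, and 27 of miR-669. By name, 30 are 5p strands, 29 are 3p strands, and 12 carry no strand. Total RNA from the small intestinal mucosa of 3 wild-type littermates and 3 Cdr1as-/- mice was hybridized to 6 one-color arrays, each with the Cy3-labeled RNA of 1 sample. The Cdr1as-/- strain, on the C57BL/6J background, lacks the Cdr1as locus after CRISPR/Cas9 editing of embryos with a pair of single-guide RNAs, so the deletion is not restricted to the gut, and all animals share that background. The age and sex of the animals used for the arrays were not given in the sources used here, nor was it said whether the samples of a genotype came from separate litters, so the p-values measure the spread between these samples. The deletion was not checked on these arrays, which report small RNAs.

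Sfmbt2 encodes a Polycomb group protein and is imprinted in the mouse, with expression from the paternal allele in extraembryonic tissue. One of its introns holds a long run of related miRNA genes found in rodents, best known from work on the placenta. Each hairpin made from such a gene is cut into a duplex of a 5p and a 3p strand, and the strand that is kept in an Argonaute protein finds target mRNAs mainly through its seed, bases 2 to 8. Cdr1as is a circular RNA known for its many binding sites for miR-7.

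In the RefSeq annotation of GRCm38.p6, Sfmbt2 spans chr2:10370440-10595253. Of the 81 annotated genes of the 4 names, 71 lie inside it, between positions 10466663 and 10518279, a stretch of 51617 bases. Of the 71 mature miRNAs measured, 58 come from genes inside Sfmbt2 only and 9 from genes elsewhere (miR-466i-5p and miR-466i-3p, miR-466j, miR-466k, miR-466q, miR-467f, miR-467g, miR-467h, and miR-669n). The other 4, miR-297a-5p and the 3 forms of miR-466f, have copies in both places, miR-297a-5p through a gene on chromosome 7. Genes were matched by symbol and synonym. A mature miRNA can have several identical copies, up to 12 for miR-669a, so its level cannot be assigned to 1 gene. All sequences printed here are those of the deposited table, and the 8 members that were also listed in the RefSeq table had the same sequence there.

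The members had 42 seeds, of which 15 were shared, by 44 members. The largest seed group held 7 members, all 3p strands. It is shown because it includes 3 miR-467 strands whose difference between genotypes was among the largest when littermate 3 was left out. With all arrays these strands (miR-467b-3p, miR-467c-3p, and miR-467d-3p) differed by −0.27, −0.28, and −0.30, less than several other 3p strands. Capitals mark the seed, and sequences run 5′ to 3′.
miR-467b-3p: aUAUACAUacacacaccaacac
miR-467c-3p: aUAUACAUacacacaccuauac
miR-467d-3p: aUAUACAUacacacaccuacac
miR-467e-3p: aUAUACAUacacacaccuauau
miR-669d-2-3p: aUAUACAUacacacccauauac
miR-669l-3p: aUAUACAUacacacccauauau
miR-669m-3p: aUAUACAUccacacaaacauau
Within this group the sequences lay 1 to 6 single-base changes apart. Over all members, 24 were within 1 change of another member and 57 within 3, whereas no miRNA outside the 4 names came closer than 4 changes to a member. How far probes for such close sequences also bind each other's targets was not tested, so the members are not independent measurements.

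The contrast between the strands can be read from hairpins with both strands in the table. Examples are shown because the results below turn on them, again with the seed in capitals.
miR-467b-5p: gUAAGUGCcugcauguauaug
miR-467c-5p: uAAGUGCGugcauguauaugug
miR-466f-3p: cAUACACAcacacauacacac
miR-466i-5p: uGUGUGUGugugugugugug
miR-466i-3p: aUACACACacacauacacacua
miR-669c-5p: aUAGUUGUguguggaugugugu
miR-669c-3p: uACACACAcacacacaaguaaa
miR-297c-5p: aUGUAUGUgugcauguacaugu
miR-297c-3p: uAUACAUAcacacauacccaua
miR-669b-5p: aGUUUUGUgugcaugugcaugu
miR-669b-3p: cAUAUACAuacacacaaacauau
The 5p strands are rich in U and G, and the 3p strands in A and C. The share of A and C among the bases ran from 0% to 40.9% in the 5p strands (median 29.2%) and from 59.1% to 90.5% in the 3p strands (median 77.3%), against a median of 45.5% over the table. The letters UGUGUGU were found in 23 members, 19 of them 5p strands and 4 without a strand in the name, and ACACACA in 23 others, 18 of them 3p strands and 5 without a strand. Over the whole table these 7 letters occurred in 33 miRNAs (1.80%) and 25 miRNAs (1.37%), searched on the mature strand only.

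One sequence from each of the other seed groups of 3 or more members is given, since the members of a group share the bases that pair with targets.
miR-466d-3p: uAUACAUAcacgcacacauag
miR-669f-3p: cAUAUACAuacacacacacguau
miR-466e-5p: gAUGUGUGuguacauguacaua
miR-466j: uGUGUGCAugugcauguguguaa
miR-669l-5p: aGUUGUGUgugcauguauaugu
miR-297a-5p: aUGUAUGUgugcaugugcaugu
The AUACAUA group of miR-466d-3p had 5 members. The groups of miR-669f-3p, miR-466e-5p, miR-466j, miR-669l-5p, and miR-297a-5p had 3 each, as did that of miR-466i-5p. The seed of miR-466e-5p also occurred in miR-1187, and the seed AAGUGCC of miR-467a-5p in miR-290a-3p and miR-292a-3p, 2 miRNAs known from mouse embryonic stem cells.

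Littermate 3 stood apart from the other 5 arrays and touches every result below. Its median unscaled signal over miRNA probes was 236, against 8.75 to 29.2 on the others, and 100% of its probes were called well above background, against 41.5% on Cdr1as-/- array 2 and 66.8% to 96.8% on the other 4. Small intestinal epithelial markers fixed for this work (miR-192, miR-194, miR-215, and the miR-200 group, 8 miRNAs) were above background on all 6 arrays, but the median marker differed in littermate 3 from the mean of littermates 1 and 2 by −2.96 on the log2 scale. The same difference was −3.29 over 5 smooth muscle and mesenchymal miRNAs, −3.40 over 5 immune miRNAs, and −2.78 over 2 erythroid miRNAs. The log2 of the summed epithelial level was 17.16 and 17.17 in littermates 1 and 2, 16.04 in littermate 3, and 17.05 to 17.16 in Cdr1as-/- mice. Differences and calls are therefore given with all arrays and without littermate 3. Littermates 1 to 3 and Cdr1as-/- mouse 1 were on slide 1 and Cdr1as-/- mice 2 and 3 on slide 2.

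With all 6 arrays, the 3p strands were slightly lower and the 5p strands slightly higher in Cdr1as-/- mice than in littermates, and no single member passed a test. These directions turned or came close to 0 in some alternatives: the 3p median difference was 0.0072 without littermate 1 and −0.0089 without littermate 2, and the 5p median difference was −0.033 without littermate 1 and −0.037 under 75th percentile scaling. The median log2 difference, Cdr1as-/- minus littermates, was −0.24 over the 29 3p strands, 0.08 over the 30 5p strands, and −0.07 over all 1831 miRNAs. Of the 3p strands 26 had a difference below 0, and of the 5p strands 8, whereas 60.9% of the table did. By limma with Benjamini-Hochberg adjustment, 0 members passed an adjusted p of 0.05 (0.0% of the table), and 0 passed an unadjusted p of 0.05 by limma or by the methods' t-test, an unpaired 2-tailed test. Over the table, 0.218% were lower and 0.109% higher at an unadjusted limma p below 0.05. In 0 of the 71 members were all Cdr1as-/- values on one side of all littermate values, where 2.73% of the table lay fully below and 0.437% fully above. The array medians show where the 3p values overlapped. The median normalized log2 intensity of the 3p strands was 5.03 for littermate 1, 5.24 for littermate 2, and 3.98 for littermate 3. On the arrays of Cdr1as-/- mice 1 to 3 it came to 4.25, 4.59, and 4.62. By these medians the 3p strands were highest in littermates 1 and 2, lowest in littermate 3, and in between in all 3 Cdr1as-/- mice. Littermate 3 was the lowest array in 19 of the 29 3p strands, against 22.1% of the table. It was lowest in 16 of the 18 with ACACACA. In the 11 without these letters it was lowest in 3 and Cdr1as-/- mouse 3 in 5, so the order did not hold there. The 5p medians were 3.83, 4.03, and 4.16 in littermates and 3.97, 4.21, and 4.09 in Cdr1as-/- mice, with overlapping groups and no such order.

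**Figure D1:**
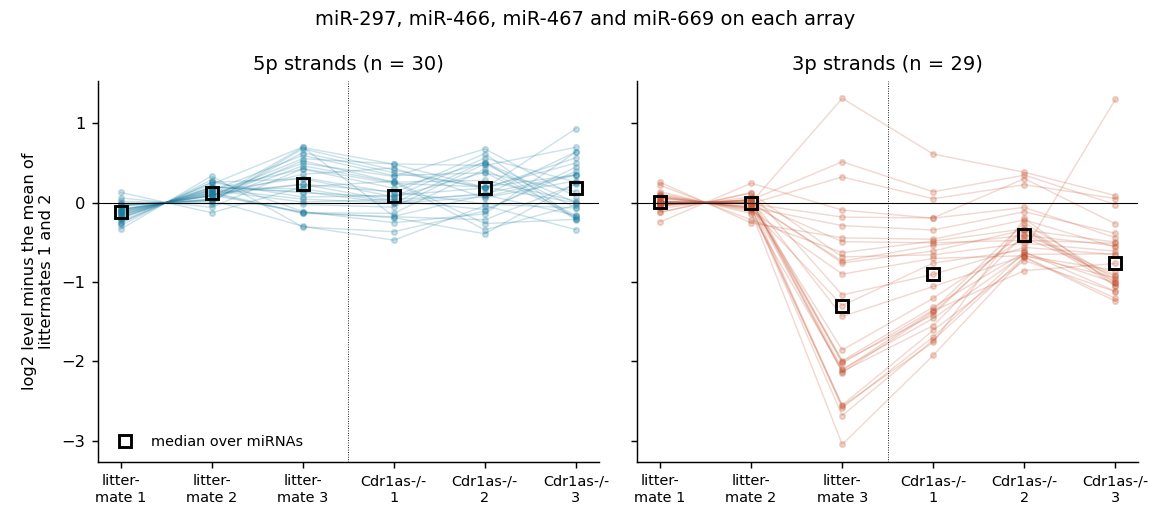
Deviation of each 5p strand (left) and 3p strand (right) from its own mean in littermates 1 and 2, in log2 units, on each of the 6 arrays; thin lines join the values of 1 miRNA and open squares are medians. The 3p medians were −1.30 in littermate 3 and −0.90, −0.41, and −0.77 in Cdr1as-/- mice 1 to 3, whereas the 5p medians stayed between −0.12 and 0.23.

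The same order appeared before any scaling between arrays. Within each array, the median unscaled signal of the 133 probes for 3p strands was divided by that of the 139 probes for 5p strands. This ratio was 2.29 and 2.08 in littermates 1 and 2, 1.36, 1.47, and 1.50 in the 3 Cdr1as-/- mice, and 0.883 in littermate 3. A ratio within an array shows that the strands moved unequally and not which of them moved. The ratio was also lower on brighter arrays. By the median unscaled signal described above, littermate 1 was dimmest (8.75), then littermate 2 and Cdr1as-/- mouse 3 (each 11.2). Cdr1as-/- mouse 2 (14.1), Cdr1as-/- mouse 1 (29.2), and littermate 3 (236) followed, with ever lower ratios. At the shared signal of 11.2, the ratio was 2.08 for littermate 2 and 1.50 for Cdr1as-/- mouse 3. Whether the ratio depends on array brightness was not tested.

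With littermate 3 left out, the 3p strands were lower in Cdr1as-/- mice and the 5p strands were not. The median difference was −0.77 over the 3p strands and 0.14 over the 5p strands, against 0.09 over the table. At an unadjusted limma p below 0.05, 17 of 29 3p strands were lower and 0 higher, while 0 of 30 5p strands were lower and 1 was higher. Among all miRNAs 10.5% were lower and 2.73% higher at that threshold. All 3 Cdr1as-/- values lay below both littermate values in 22 of the 3p strands and above them in 2. For the 5p strands these counts were 1 and 4. The shares over the table were 19.9% below and 20.3% above. After Benjamini-Hochberg adjustment over all 1831 miRNAs, limma called 0 members and 0 miRNAs (0.0%), with a lowest adjusted p of 0.247 among members and 0.158 in the table. The methods' t-test gave 10 3p strands lower and 2 5p strands higher at the same unadjusted threshold, and called 0 members once its p-values were adjusted. Normexp background correction moved the 3p median to −0.31, with 8 of the 3p strands lower, and scaling to the 75th percentile gave 6 lower with a median of −0.80.

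**Figure D2:**
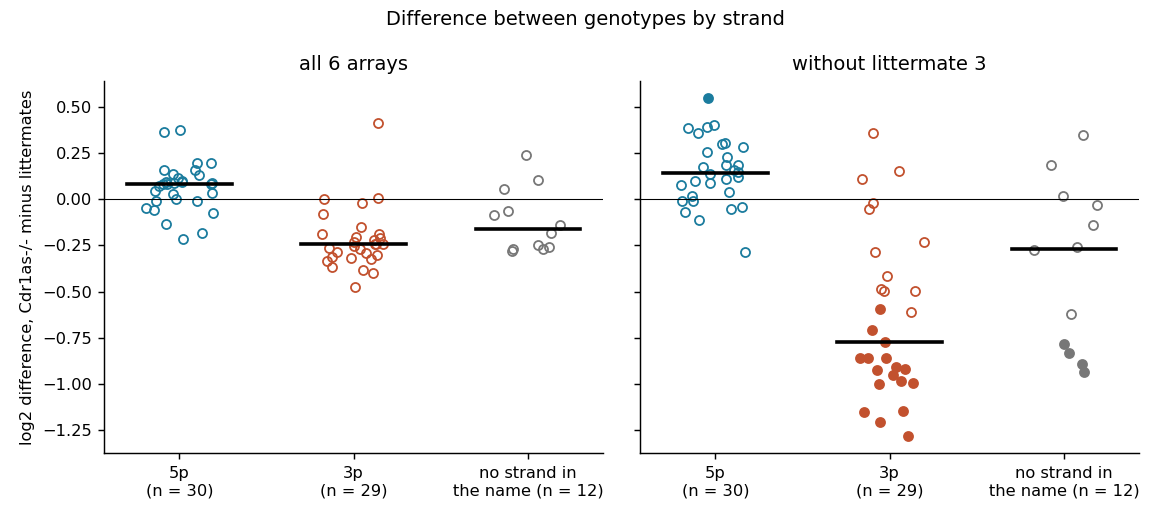
Log2 difference between Cdr1as-/- mice and littermates for each member by strand, with all 6 arrays (left) and without littermate 3 (right); filled points had an unadjusted limma p below 0.05 and bars are medians. Without littermate 3 the filled points were 17 of 29 3p strands, 1 of 30 5p strands, and 4 of 12 members without a strand in the name.

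Among the 3p strands, miR-467b-3p had the largest difference without littermate 3, while with all arrays it was miR-297c-3p. The normalized log2 intensity of miR-467b-3p was 7.29, 7.07, and 4.13 in littermates 1 to 3 (6.16 ± 1.76, mean ± SD, n = 3) and 5.26, 6.49, and 5.94 in Cdr1as-/- mice 1 to 3 (5.90 ± 0.62, n = 3). Littermates 1 and 2 lay above every Cdr1as-/- mouse and littermate 3 below every one, so the groups overlapped. Its log2 difference was −0.27 (SE 0.89, limma adjusted p = 0.99997) with all arrays and −1.29 (SE 0.35, limma adjusted p = 0.247) without littermate 3. miR-467c-3p, 2 changes away from it, had 6.55, 6.45, and 3.91 in littermates and 4.81, 5.88, and 5.38 in Cdr1as-/- mice. The order of the arrays was the same, and the difference was −0.28 (SE 0.76) with all arrays and −1.15 (SE 0.32) without littermate 3. miR-467d-3p, named after its values were seen, differed by −0.30 (SE 0.74) with all arrays and −1.15 (SE 0.30) without littermate 3. miR-467e-3p, within 1 change of miR-467c-3p, differed by −0.23 (SE 0.29) with all arrays and −0.48 (SE 0.23) without littermate 3, with 4.40, 4.42, and 3.65 in littermates and 3.80, 4.07, and 3.91 in Cdr1as-/- mice. The averaged value of miR-467a-3p did not follow the others, with 4.93, 4.76, and 3.55 in littermates and 4.09, 4.25, and 6.15 in Cdr1as-/- mice. With its high value in Cdr1as-/- mouse 3, it differed by 0.41 (SE 0.67) with all arrays and −0.02 (SE 0.54) without littermate 3. The value with all arrays turned to −0.28 and −0.20 under 75th percentile and quantile scaling, and was 1.15 with the probe of highest mean. Its 5 probes differed among themselves, from −0.85 to 0.75 without littermate 3, and 4 of them lay below 0. The deviation of miR-467a-3p was thus not shared by all its probes. Over the 7 members of the UAUACAU seed group, the median difference without littermate 3 was −0.996, all 7 were below 0, and 4 had an unadjusted limma p below 0.05. With all arrays the median was −0.27, 6 were below 0, and 0 passed that p.

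Among the miR-669 3p strands, 8 of 13 were lower at an unadjusted limma p below 0.05 without littermate 3, and the median difference was −0.86. With all arrays 0 were lower and the median was −0.24. miR-669c-3p, whose seed is itself ACACACA, had 7.41, 7.56, and 5.48 in littermates (6.82 ± 1.16, n = 3) and 6.07, 7.17, and 6.49 in Cdr1as-/- mice (6.58 ± 0.56, n = 3). It was highest in littermates 1 and 2 and lowest in littermate 3, with a difference of −0.24 (SE 0.63) over all arrays and −0.91 (SE 0.33) without littermate 3. miR-669p-3p, with 7.24, 7.31, and 5.13 in littermates and 5.89, 6.93, and 6.22 in Cdr1as-/- mice, had the same order. Its difference was −0.21 (SE 0.66) with all arrays and −0.93 (SE 0.32) without littermate 3. miR-669f-3p differed by −0.24 (SE 0.57) and −0.86 (SE 0.28), and miR-669h-3p by −0.37 (SE 0.28) and −0.59 (SE 0.23), with all arrays and without littermate 3, respectively. The largest differences of this group without littermate 3, seen only on looking at all values, were −1.21 (SE 0.32) for miR-669e-3p and −0.996 (SE 0.27) for miR-669d-2-3p, which with all arrays differed by −0.31 (SE 0.79) and −0.29 (SE 0.62). miR-669k-3p stayed between 3.07 and 3.41 on all arrays and miR-669l-3p between 3.00 and 3.57, and neither had a difference beyond its standard error.

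Of the 10 miR-466 3p strands, 5 were lower at an unadjusted limma p below 0.05 without littermate 3, and the median difference was −0.66. With all arrays 0 were lower and the median was −0.22. miR-466f-3p, the 3p strand with the highest mean, had 7.93, 7.92, and 5.36 in littermates (7.07 ± 1.48, n = 3) and 6.17, 7.73, and 6.88 in Cdr1as-/- mice (6.93 ± 0.78, n = 3). Cdr1as-/- mouse 2 lay close to littermates 1 and 2, and littermate 3 lay lowest. The difference was −0.15 (SE 0.80) over all arrays and −1.003 (SE 0.40) without littermate 3. miR-466i-3p had 7.19, 7.26, and 5.20 in littermates and 5.87, 6.97, and 6.25 in Cdr1as-/- mice, and differed by −0.19 (SE 0.63) with all arrays and −0.86 (SE 0.33) without littermate 3. miR-466h-3p differed by −0.24 (SE 0.66) and −0.95 (SE 0.33). miR-466b-3p differed by −0.33 (SE 0.24) and −0.50 (SE 0.22), with 4.07 to 4.11 in Cdr1as-/- mice, 4.58 and 4.60 in littermates 1 and 2, and 4.09 in littermate 3. The 2 with differences above 0 without littermate 3 were miR-466d-3p, at −0.019 (SE 0.26) with all arrays and 0.15 (SE 0.24) without, and miR-466n-3p, at −0.077 (SE 0.42) and 0.36 (SE 0.25). The latter had 4.15, 4.15, and 5.46 in littermates and 4.76, 4.53, and 4.24 in Cdr1as-/- mice, so that littermate 3 was highest, and it was named after this was seen. Its sequence, shown for that contrast, holds no ACACACA and has the lowest share of A and C among the 3p strands, 59.1%.
miR-466n-3p: uAUACAUGagagcauacauaga

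The only miR-297 3p strand, miR-297c-3p, had the smallest limma p of all members over 6 arrays (unadjusted p = 0.193, limma adjusted p = 0.99997). It had 4.13, 3.94, and 3.14 in littermates (3.74 ± 0.53, n = 3) and 3.33, 3.37, and 3.09 in Cdr1as-/- mice (3.26 ± 0.15, n = 3). Littermate 3 again lay with the Cdr1as-/- mice. On Cdr1as-/- array 2, 0 of the 5 probes for miR-297c-3p were above background. The difference was −0.47 (SE 0.32) over all arrays and −0.77 (SE 0.24) without littermate 3. Under 75th percentile and quantile scaling of 1 probe per miRNA it was 0.21 and 0.43 over all arrays. With the probe of highest mean, taken from the deposited values without new scaling, it was 0.38. Without littermate 3 it was 0.19 under quantile scaling. The 5 probes for miR-297c-3p differed among themselves, from −1.49 to 0.19 without littermate 3.

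The array medians of the 5p strands varied little. The pooled SD of the array medians within genotypes was 0.14 for the 5p strands and 0.50 for the 3p strands. Single 5p strands ranged over 0.32 to 1.19 log2 units across arrays (median 0.65), and single 3p strands over 0.33 to 3.16 (median 1.47). On Cdr1as-/- array 2, only 12 of 30 5p strands and 14 of 29 3p strands had a probe above background. miR-466i-5p, a plain repeat of U and G and the member with the highest mean, had 9.01, 9.48, and 9.94 in littermates (9.48 ± 0.47, n = 3) and 9.07, 9.34, and 9.88 in Cdr1as-/- mice (9.43 ± 0.41, n = 3). The groups covered the same range, and the difference was −0.05 (SE 0.35) over all arrays and 0.19 (SE 0.30) without littermate 3. miR-467c-5p had 6.73, 6.89, and 7.17 in littermates and 7.25, 6.87, and 7.09 in Cdr1as-/- mice, a difference of 0.14 (SE 0.24) with all arrays and 0.26 (SE 0.24) without littermate 3. miR-669c-5p differed by 0.12 (SE 0.33) and 0.08 (SE 0.33), and miR-466d-5p by 0.09 (SE 0.27) and 0.23 (SE 0.26), both with overlapping groups. The 5p strand with the lowest p was miR-669b-5p, with 3.10, 3.28, and 3.75 in littermates (3.38 ± 0.33, n = 3) and 3.68, 3.66, and 3.89 in Cdr1as-/- mice (3.74 ± 0.13, n = 3). Of its 5 probes, 0 were above background on Cdr1as-/- array 2 and 1 on the array of littermate 1. Only littermate 3 reached the Cdr1as-/- values, and the difference was 0.37 (SE 0.26) over all arrays and 0.55 (SE 0.23, limma adjusted p = 0.364) without littermate 3. miR-297a-5p differed by 0.38 (SE 0.32) with all arrays and 0.40 (SE 0.32) without littermate 3, mainly through its value of 5.02 in Cdr1as-/- mouse 3 against 3.83 to 4.34 on the other arrays. miR-466a-5p differed by 0.20 (SE 0.27) and 0.30 (SE 0.27). miR-466e-5p, within 1 change of it, differed by −0.18 (SE 0.24) and −0.28 (SE 0.24) and lay fully below littermates 1 and 2. miR-466h-5p differed by −0.22 (SE 0.28) and −0.039 (SE 0.26), miR-466p-5p by −0.13 (SE 0.25) and −0.069 (SE 0.26), and miR-467a-5p by 0.0036 (SE 0.24) and 0.15 (SE 0.23).

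**Figure D3:**
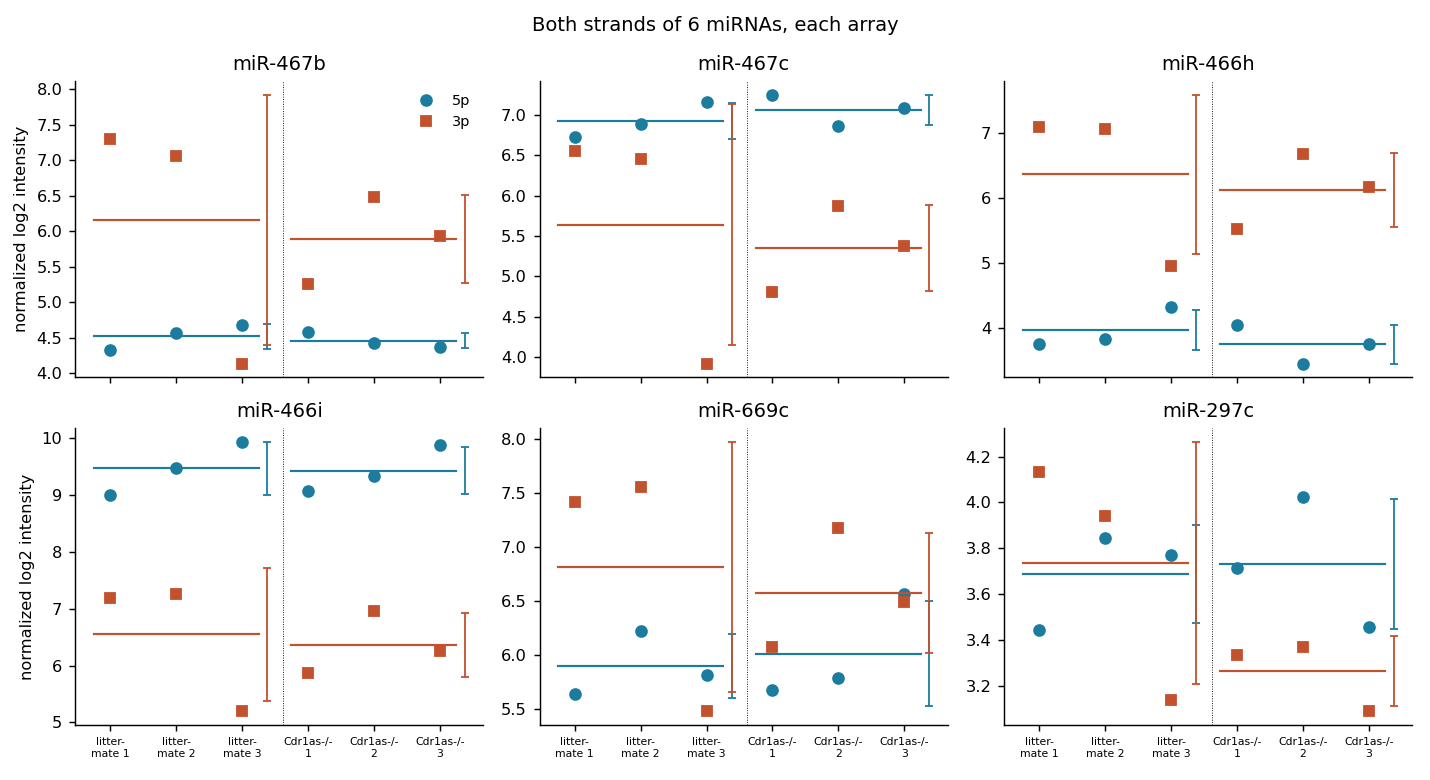
Normalized log2 intensity of the 5p strand (circles) and 3p strand (squares) of 6 miRNAs on each array; lines are means and bars SDs of the 3 samples of a genotype, and each panel has its own scale. In all 6 panels the 3p value of littermate 3 lay below those of littermates 1 and 2, as did those of the 3 Cdr1as-/- mice. The 6 were picked by hand for display, and hairpins without this pattern, such as miR-466n and miR-467a, are not drawn.

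The strands were then set against each other within a hairpin. The table held both strands of 24 hairpins of these names. Without littermate 3, the log2 difference between genotypes was lower for the 3p than for the 5p strand in 22 of them (91.7%), with a median gap of −0.91, and in 16 the 3p strand was below 0 while the 5p strand was above 0. Among the 635 other hairpins in the table the 3p strand had the lower difference in 341 (53.7%), with a median gap of −0.06. Without littermate 3 the gap was −1.40 for miR-467c, −1.30 for miR-467b, −1.05 for miR-466i, −0.99 for miR-669c, −0.96 for miR-669b, −0.91 for miR-466h, and −0.86 for miR-297c. The exceptions were miR-466n (0.26) and miR-669l, in which the gap was 0.00077. With all 6 arrays the gap was below 0 in 22 hairpins as well, but its median was −0.31 and its range −0.63 (miR-669b) to 0.41 (miR-467a). The share among the other hairpins was not computed with all arrays, so this count has no comparison. These values are descriptions, since strands of related hairpins are not independent.

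Members encoded outside Sfmbt2 were set beside those inside it by their sequence. Without littermate 3 the differences of all 23 members with ACACACA were below 0, with a median of −0.86, and 18 had an unadjusted limma p below 0.05. The 23 members with UGUGUGU had a median of 0.12 and 0 below that p. With all arrays the ACACACA members had a median of −0.27, 22 were below 0, and 0 passed that p, while the UGUGUGU members had a median of 0.09 and 0 passed. Of the ACACACA members, the 18 encoded in Sfmbt2 only had a median of −0.85 (14 lower by limma), and the 4 encoded elsewhere had a median of −0.88 (3 lower). With all arrays these medians were −0.27 and −0.23, with 0 lower in either set. Those elsewhere carried the same letters on other chromosomes: miR-466i-3p on chromosome 13, miR-467f on chromosome 11, miR-466q on chromosome 3, and miR-467g on chromosome 5. Among the 3p strands, the 18 with ACACACA had a median of −0.88 and the 11 without it −0.28 without littermate 3, and −0.26 and −0.20 with all arrays. Their median levels in littermate 1 were 6.51 and 4.58, so these sets also differed in level.
miR-467f: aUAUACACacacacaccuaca
miR-466q: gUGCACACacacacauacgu
These 2 sequences are shown because their genes lie outside Sfmbt2, at chr11:69635400-69635519 and chr3:28419943-28420018. miR-467f had 7.38, 7.44, and 5.28 in littermates and 5.96, 7.16, and 6.44 in Cdr1as-/- mice, and differed by −0.18 (SE 0.67) over all arrays and −0.89 (SE 0.34) without littermate 3. miR-466q had 6.89, 6.93, and 4.91 in littermates and 5.52, 6.48, and 5.91 in Cdr1as-/- mice, and differed by −0.27 (SE 0.61) and −0.94 (SE 0.31). Both had the array order of the 3p medians, with littermates 1 and 2 highest and littermate 3 lowest. The other members without a strand in the name divided in the same way: the 5 with ACACACA had differences from −0.94 to −0.62 without littermate 3, and the 7 without it from −0.27 to 0.35. With all arrays these ranges were −0.28 to −0.18 and −0.25 to 0.24.

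**Figure D4:**
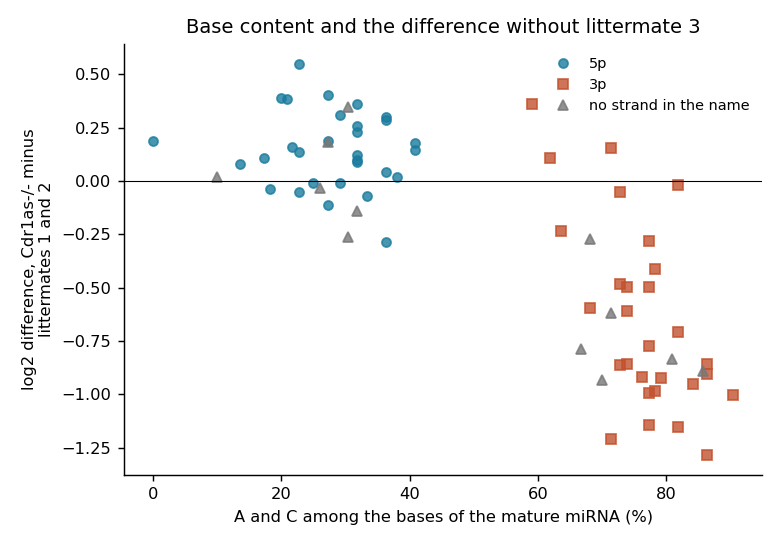
Share of A and C among the bases of each member (percent) against its log2 difference between Cdr1as-/- mice and littermates 1 and 2. The 5p strands lie at up to 40.9% with differences mostly above 0, and the 3p strands at 59.1% or more with differences down to −1.29.

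Across the 71 members, the share of A and C and the difference without littermate 3 had a Pearson r of −0.81 and a Spearman rho of −0.76. Within the 3p strands r was −0.62 (n = 29) and within the 5p strands −0.12 (n = 30), and among the 1760 other miRNAs of the table it was −0.27. With all arrays r was −0.67 over the members, −0.076 within the 3p strands, 0.0027 within the 5p strands, and 0.053 among the other miRNAs. Within the 3p strands the mean level was related to the difference without littermate 3 about as strongly, with an r of −0.63. The Spearman rho there was −0.67 for mean level and −0.54 for the share of A and C. The parts of level and base content were not tested apart. The correlations are across miRNAs measured on the same arrays and carry no p. Over the members, the share of A and C had an r of −0.77 with the difference between littermate 3 and littermates 1 and 2. This r was −0.72 within the 3p strands, −0.21 within the 5p strands, and −0.26 among the other miRNAs. This difference and that of the Cdr1as-/- mice without littermate 3 both subtract the mean of littermates 1 and 2. Their correlations are therefore not independent. Of miRNAs outside the 4 names with at least 75% A and C, the 25 had a median difference of −0.25 without littermate 3 and 9 were lower by limma at an unadjusted p below 0.05, and the 19 members above that share had a median of −0.91 and 15 lower. With all arrays the medians were −0.22 (1 lower) and −0.27 (0 lower). Only 2 miRNAs outside the 4 names held ACACACA. These were miR-672-3p, at −0.26 with all arrays and −0.25 (SE 0.23) without littermate 3, and miR-7212-3p, at −0.022 and 0.031 (SE 0.25). Their levels were low, from 3.72 to 4.14 and from 2.88 to 3.30 across the arrays. The ACACACA members had medians of 6.46 and 6.43 in littermates 1 and 2. At such levels this pair cannot show whether the difference extends beyond the 4 names. Of the 10 others with UGUGUGU, miR-574-5p differed by −0.019 with all arrays and −0.033 (SE 0.37) without littermate 3, and miR-1187 by −0.036 and −0.062 (SE 0.36). Of the 10, 0 passed an unadjusted limma p of 0.05 either way.

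Without littermate 3 the differences were as large among the members with a probe above background on every array and were shared by most probes. Of the 14 3p strands with a probe above background on all 6 arrays, 12 were lower by limma without littermate 3, and their median was −0.94. The 12 such 5p strands had a median of 0.17 and 0 lower. With all arrays these medians were −0.24 and 0.09. The share lower among all miRNAs of the table that pass this detection filter was not computed, so these counts have no comparison. A single probe per array sufficed. For miR-466o-3p, 1 of 5 probes was above background on Cdr1as-/- array 2. Of the 133 probes for 3p strands, 117 (88.0%) had a difference below 0 without littermate 3, and in 20 of the 29 3p strands every probe did. With all arrays 116 of these probes were below 0. Of the 139 probes for 5p strands, 37 (26.6%) lay below 0, against 41.9% of all 8437 probes. Only 47.4% of 3p probes and 25.9% of 5p probes were above background on Cdr1as-/- array 2, the array on which the 3p strands lay closest to littermates 1 and 2. Slide 1 alone, on which Cdr1as-/- mouse 1 is compared with the 3 littermates, gave a median of −0.52 for the 3p and 0.03 for the 5p strands. Against littermates 1 and 2 the 3p median was −0.90 in that mouse and −0.41 and −0.77 in the Cdr1as-/- mice of slide 2. Marker miRNAs differed between Cdr1as-/- mice and littermates 1 and 2 by a median of −0.14 for epithelium, 0.23 for muscle and mesenchyme, −0.23 for immune cells, and −1.15 for erythroid cells. Against all 3 littermates the medians were 0.85, 0.77, 0.59, and −0.23. Their part in the result was not tested. In RNA from whole mucosa, fewer cells of a type and less RNA per cell cannot be told apart.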

How the data were processed

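Small RNAs of mouse small intestinal mucosa (3 littermates, 3 Cdr1as-/- mice, grouped and numbered by their labels) were measured on 6 one-color arrays. The deposited scanner output holds each probe's intensity, background-subtracted by the authors with Agilent Feature Extraction 11.0.1.1. The authors' deposited comparison table holds a normalized log2 value per miRNA and sample; how it was normalized was not given in the sources used here. Averaging, before the log, up to 5 probes of the authors' deposited table of normalized log2 intensities returned each of these values (tolerance 0.0005), which placed 8437 probes. The table's fold changes, p-values, and q-values come from the authors' own comparison and were not used.

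The deposited log2 values of all 1831 miRNAs were fitted by limma 3.58.1 (lmFit, eBayes; R 4.3.3) with genotype as the only term and no filter, and p-values were adjusted by Benjamini-Hochberg over the table. The code was tested on simulated data. Summaries used Python 3.11.15, pandas 2.3.3, NumPy 2.4.6, and SciPy 1.17.1, and plots matplotlib 3.10.9. Depth has no counterpart on arrays; the number of arrays limits the precision. Alternatives covered scaling (75th percentile over probes detected on all arrays, quantile) and normexp (offset 50) of the scanner signal with 1 probe per miRNA, the probe with the highest mean, a filter on dim probes, the methods' t-test, an intensity trend, the replicate number and slide as blocks, and each array left out in turn. Littermate 3 left out together with another choice was added after seeing the data. Named members were, of each strand, the 4 with the highest mean and for each direction the 3 with the lowest limma p, with the other strand of their hairpin and 1 member of each seed group of 3 or more; others are marked in the text. The members and lists were chosen with earlier results of these data known. Sequence places came from RefSeq tables of GRCm38.p6. 1 item is not reported here.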

Additional observations from a re-analysis of the deposited data

How the results depend on the processing

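With 3 samples a genotype, signal near background on most arrays, and a littermate array unlike the rest, the arrays limit every value here. No adjusted call among members arose under any alternative run. The 75th percentile scaling moved the median difference over the table by −0.13 (6 arrays) and −0.24 (without littermate 3). The cause of the changes below was not tested.

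Leaving out 1 array at a time, the number of 3p strands lower at an unadjusted limma p below 0.05 ran from 0 to 17, reached without littermate 3, and was 0 without any other array; the number of 5p strands higher ran from 0 to 1. The 3p median ran from −0.77 to 0.0072, the latter without littermate 1, and the 5p median from −0.033, without littermate 1, to 0.14. Members whose groups did not overlap ran from 0 to 22 (3p, lower), 0 to 2 (3p, higher), 0 to 3 (5p, lower), and 0 to 4 (5p, higher). With all arrays, the 75th percentile scaling gave 1 5p strand fully below and a 5p median of −0.037, below 0 where the deposited values gave 0.08.

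Without littermate 3, the 3p strands lower by limma numbered 6 under 75th percentile scaling, 14 under quantile normalization, 8 under normexp, 16 with the probe of highest mean, 18 with the filter, and 10 by the methods' t-test. The 3p strands higher were 1 under quantile normalization and 1 with the probe of highest mean, and the 5p strands higher were 1 with the probe of highest mean, 1 with the filter, and 2 by the t-test. In the order 75th percentile, quantile, normexp, highest probe, and filter, the 3p strands fully below were 17, 21, 16, 21, and 22, those fully above 1, 1, 1, 1, and 2, and the 5p strands fully above 1, 7, 3, 7, and 4. The 5p strands fully below were 2 under 75th percentile scaling and 1 each under quantile normalization, highest probe, and filter. The 3p median was −0.80, −0.77, −0.77, and −0.82 under 75th percentile, quantile, highest probe, and filter, and the quantile 5p median was 0.23. For the settings of this paragraph, and for the other arrays left out in turn, shares over all miRNAs were not computed. Their counts therefore have no comparison.

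Single members changed sign over all arrays as follows. The 75th percentile scaling gave 0.21 for miR-297c-3p, −0.36 for miR-297c-5p, −0.034 for miR-466a-5p, −0.19 for miR-466d-5p, 0.083 for miR-466i-5p, −0.28 for miR-467a-3p, −0.29 for miR-467a-5p, −0.45 for miR-669k-3p, and −0.041 for miR-669k-5p. Quantile normalization gave 0.43 for miR-297c-3p, −0.21 for miR-297c-5p, 0.10 for miR-466d-3p, 0.19 for miR-466p-5p, −0.20 for miR-467a-3p, −0.11 for miR-467a-5p, 0.086 for miR-669b-3p, and −0.18 for miR-669k-3p. Normexp gave −0.0079 for miR-297c-5p, 0.024 for miR-466d-3p, −0.0041 for miR-466d-5p, 0.036 for miR-466h-5p, −0.19 for miR-467a-3p, −0.061 for miR-669k-3p, and −0.087 for miR-669k-5p. The probe of highest mean gave 0.38 for miR-297c-3p, −0.20 for miR-297c-5p, 0.11 for miR-466d-3p, 0.19 for miR-466p-5p, −0.11 for miR-467a-5p, 0.088 for miR-669b-3p, and −0.15 for miR-669k-3p. The slide as a block gave −0.027 for miR-466a-5p, 0.082 for miR-466h-5p, 0.20 for miR-466p-5p, −0.33 for miR-467a-3p, −0.22 for miR-669c-5p, −0.059 for miR-669k-3p, and −0.13 for miR-669l-3p. With 1 array left out in turn, differences ran from −0.10 to 0.18 for miR-297c-5p, −0.12 to 0.15 for miR-466d-3p, −0.065 to 0.23 for miR-466d-5p, −1.003 to 0.28 for miR-466f-3p, −0.95 to 0.12 for miR-466h-3p, −0.86 to 0.17 for miR-466i-3p, −0.28 to 0.19 for miR-466i-5p, −0.25 to 0.79 for miR-467a-3p, −0.10 to 0.15 for miR-467a-5p, −1.29 to 0.30 for miR-467b-3p, −1.15 to 0.17 for miR-467c-3p, −0.91 to 0.13 for miR-669c-3p, −0.16 to 0.29 for miR-669c-5p, −0.86 to 0.075 for miR-669f-3p, −0.020 to 0.31 for miR-669h-5p, −0.059 to 0.11 for miR-669k-3p, −0.17 to 0.12 for miR-669l-3p, −0.15 to 0.073 for miR-669l-5p, and −0.93 to 0.16 for miR-669p-3p. The other 409 alternative values of single members kept direction and side of the threshold on the adjusted p. The side of the unadjusted threshold was not compared for them, and some crossed it without littermate 3. For example, the unadjusted limma p went from 0.236 to 0.031 for miR-669h-3p and from 0.205 to 0.043 for miR-669b-5p.

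Replicate numbers 1 to 3 occur in both genotypes, but same-numbered samples deviated from their group means with correlations of −0.76, 0.56, and −0.22, so the numbers were not taken as pairs. With the replicate number as a block, limma called 0 members at an unadjusted p below 0.05, and the medians stayed at −0.24 (3p) and 0.08 (5p).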
